A study of Homo sapiens with 12 samples.

Results

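ML60218 is a small molecule used to inhibit RNA polymerase III (Pol III), and the comparison described here set HEK293T cells exposed to it for 4 hours against cells exposed to its vehicle. It comprised 6 of the 12 messenger RNA libraries of the study, taken by their titles: 3 from cells given 0.1% DMSO and 3 from cells given 25 µM ML60218, all collected at 4 hours. The other 6 libraries were collected 2 days after the same line was transfected with siRNA, either siControl or siPOLR3A, and enter only where an ML60218 effect is set against the effect of depleting POLR3A. HEK293T is an established human embryonic kidney line, obtained from ATCC according to the labels. Nothing in the labels says whether the 3 libraries of a group came from separate cultures, so the p-values measure the spread between these libraries, which may be technical.

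Pol III makes transfer RNAs, 5S ribosomal RNA and other short noncoding RNAs, while messenger RNAs are made by RNA polymerase II (Pol II). When cells are stressed, kinases that phosphorylate the translation factor eIF2 lower general protein synthesis and raise the translation of ATF4, a transcription factor that then switches on genes for amino acid supply, tRNA charging and, under lasting stress, cell death. This program is called the integrated stress response. Heat shock genes answer to another factor, HSF1, and immediate early genes such as FOS and JUN answer within minutes to signalling kinases.

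Estimated reads per library ranged from 38776830 to 49479476, and 15193 to 15595 genes reached 10 reads in a library. VIM, KRT18, NEFM and NEFL, which HEK293 cells are known to express, were measured in all 6 libraries, and KRT8 was low, at 2.48 to 5.37 CPM. Of 9 marker genes of blood, endothelial, fibroblast, liver and erythroid cells, PTPRC, CD3E and HBB were at 0 in every library, and the 9 together summed to between 26.3 and 29.9 CPM (counts scaled to a common library total), most of it COL1A1. RNAs made by Pol III are not analysed here, so no readout of Pol III activity stands beside the values below.

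Messenger RNA levels differed broadly but mostly by little between the groups. The test covered 15461 genes and called 6029 (39.0%) at an adjusted p under 0.05 in edgeR's quasi-likelihood test. There were 2800 genes called higher (18.1%) and 3229 called lower (20.9%), and a called gene typically moved by 0.27 in log2 units (median). Rises of at least 2-fold were called for 177 genes (1.14%) and falls of that size for 27 (0.175%), so that the larger changes were mainly rises. Leaving out ML60218 replicate 1 raised the number of such falls to 58. The balance between higher and lower depended on how libraries were scaled: 46.4% of the called genes were higher with the scaling used here, 58.6% after upper quartile scaling, 67.0% under total counts and 82.2% when log2(TPM + 1) was tested with limma. In that last test the median of all genes itself stood at 0.11, against 0.0054 here. CPM are relative to the total of a library, and a change in the amount of messenger RNA per cell was not measured.

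**Figure D1:**
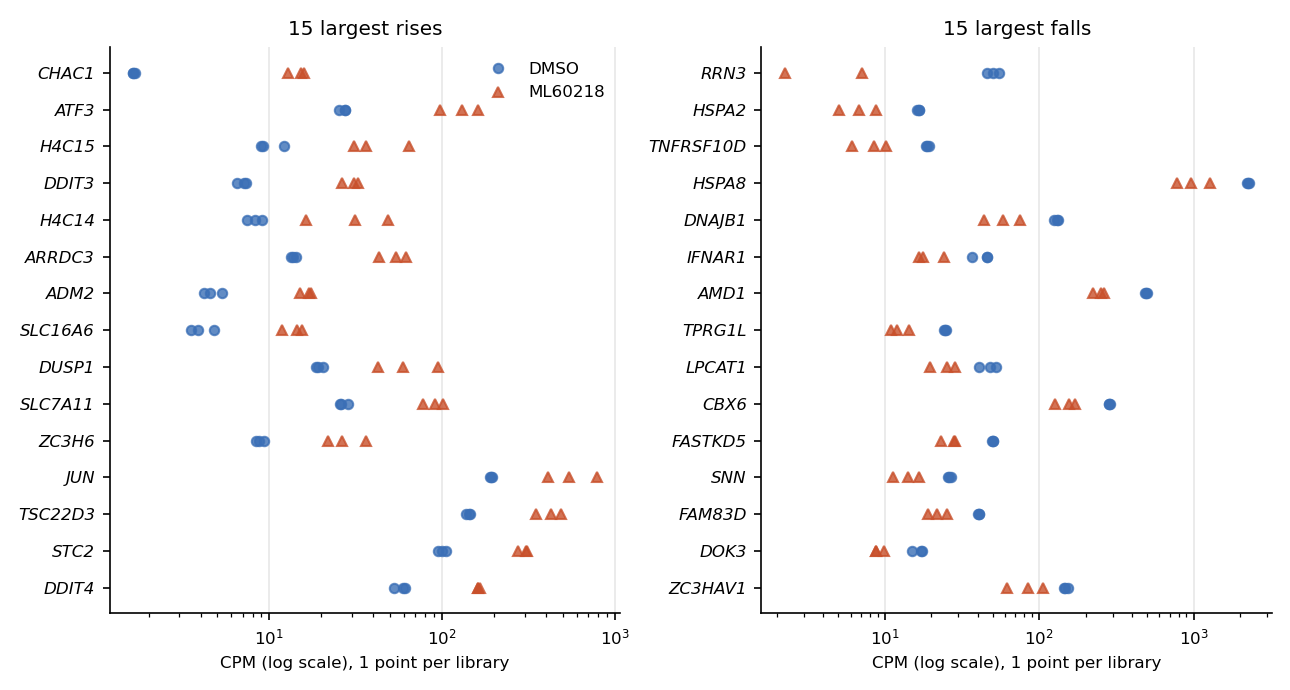
CPM of the 15 protein-coding genes with the largest rises and the 15 with the largest falls in each library (log scale, circles for 3 DMSO and triangles for 3 ML60218 libraries). The groups do not overlap for any of these genes, a condition of their choice, and CHAC1 and RRN3 stand at the ends; ML60218 replicate 2 is at 0 CPM for RRN3 and cannot be drawn.

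Genes of the integrated stress response were among those that rose most. Of its 20 regulators and effectors tested, 13 were called higher and 1 lower, with a median log2 fold change of 0.71, against 0.0054 over all genes tested. CHAC1 (ENSG00000128965, chromosome 15, 40952962 to 40956519, plus strand), an enzyme that degrades glutathione, stood at 1.66, 1.63 and 1.62 CPM with DMSO and 12.8, 15.8 and 15.2 CPM with ML60218. This was the largest rise among the named protein-coding genes (log2 fold change 3.15, SE 0.11, adjusted p 6.29e-07). Positions here and below are on GRCh38, from GENCODE 29. The transcription factor ATF3 (ENSG00000162772, chromosome 1, 212565334 to 212620777, plus strand) stood at 25.4, 27.3 and 27.3 CPM with DMSO and 97.1, 129.6 and 161 CPM with ML60218 (log2 fold change 2.28, SE 0.22, adjusted p 0.00222). DDIT3 (ENSG00000175197, chromosome 12, 57516588 to 57521737, minus strand), which encodes the factor CHOP, stood at 6.47, 7.10 and 7.31 CPM with DMSO and 26.5, 32.4 and 30.8 CPM with ML60218 (log2 fold change 2.10, SE 0.086, adjusted p 1.51e-06). For all 3 genes the lowest ML60218 library was well above the highest DMSO library, and only ATF3 varied much among the ML60218 libraries.

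Other members moved less. DDIT4, an inhibitor of mTORC1 signalling, measured 59.1, 52.4 and 61.0 CPM with DMSO and 161, 161 and 165 CPM with ML60218, a log2 fold change of 1.5, and hardly varied within a group. JDP2 rose by 1.47, NUPR1 by 1.12, PPP1R15A, which encodes the phosphatase subunit that reverses eIF2 phosphorylation, by 1.11, and CEBPB by 1.01. Smaller rises were called for CEBPG (0.81), a partner of ATF4, VLDLR (0.79), CREBRF (0.64), KLHL24 (0.38) and TRIB3 (0.36). ATF4 itself, whose activity is set mainly through its translation, was not called: its libraries measured 19.5, 21.0 and 23.9 CPM with DMSO and 26.5, 22.3 and 22.4 CPM with ML60218, and the groups overlapped (log2 fold change 0.14, SE 0.092, adjusted p 0.257). ATF4 was called in 2 of the 15 alternatives, at 0.26 (adjusted p 0.0408) in the limma test and at 0.36 (adjusted p 0.000163) with neighbouring transcripts included. None of the 4 eIF2 kinases passed the test, with log2 fold changes between −0.038 for EIF2AK1 and 0.19 for EIF2AK3. EIF2AK3 was called with neighbouring transcripts included and without ML60218 replicate 1, EIF2AK2 without DMSO replicate 1, and EIF2AK4 with upper quartile scaling and total counts, all as higher. ATF5 was the 1 member called lower, at −0.66.

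The secreted proteins that stressed cells release rose with them. All 4 of those tested were called higher. ADM2, a peptide hormone of the adrenomedullin family, measured 4.19, 4.52 and 5.29 CPM with DMSO and 15, 17.0 and 17.5 CPM with ML60218 (log2 fold change 1.82, SE 0.10, adjusted p 1.12e-05). STC2, a secreted glycoprotein, measured 100.5, 95.2 and 106 CPM with DMSO and 273, 307 and 309.7 CPM with ML60218 (log2 fold change 1.56, SE 0.057, adjusted p 2.16e-06). VEGFA, the angiogenic growth factor, rose by 0.58. GDF15 rose by 1.88 but stayed under 1 CPM in every library, from 0.113 to 0.400 CPM with DMSO and from 0.635 to 0.995 CPM with ML60218. STC2 was thus abundant and GDF15 scarce in both groups.

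Genes for making and taking up amino acids rose in part. Of 20 synthesis and folate-pathway enzymes, 10 were called higher and 3 lower (median 0.11), beside 18.1% and 20.9% of all genes tested. CTH, which makes cysteine from cystathionine, measured 16.4, 16.7 and 16.4 CPM with DMSO and 38.8, 43.2 and 43.9 CPM with ML60218 (log2 fold change 1.35, SE 0.058, adjusted p 1.51e-06). ASNS, asparagine synthetase, measured 118, 117 and 123 CPM with DMSO and 226, 252 and 242 CPM with ML60218 (log2 fold change 1.01, SE 0.043, adjusted p 1.51e-06). Its transcribed pseudogene ASNSP1 rose from 0.347, 0.204 and 0.305 CPM to 2.85, 4.84 and 6.19 CPM (log2 fold change 4.02, SE 0.35, adjusted p 0.000266), and because the copies can share reads its own level is uncertain; ASNS with its pseudogenes summed to 119 ± 3.28 CPM with DMSO and 245 ± 14 CPM with ML60218. ALDH1L2 (0.57) and MTHFD2 (0.41), both of the mitochondrial folate pathway, the alanine aminotransferase GPT2 (0.53) and the serine pathway enzyme PSAT1 (0.38) rose by less. PHGDH, the first enzyme of that pathway, was not called (0.058). GOT2 (−0.12) and ALDH18A1 (−0.11) were among those called lower, a count that was 1 without any 1 of the DMSO libraries and 0 in the limma test.

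Among 22 amino acid transporters, 10 were called higher and 5 lower (median 0.091), beside 18.1% and 20.9% of all genes tested. SLC7A11, the cystine-glutamate exchanger, measured 28.4, 25.7 and 25.9 CPM with DMSO and 77.2, 90.9 and 102 CPM with ML60218 (log2 fold change 1.76, SE 0.11, adjusted p 0.000173). Its heavy chain SLC3A2 measured 84.8, 81.7 and 82.7 CPM with DMSO and 124, 163 and 200.3 CPM with ML60218 (log2 fold change 0.97, SE 0.19, adjusted p 0.0191). The 3 ML60218 libraries lay far apart for SLC3A2, which lost its call in 5 of the 15 alternatives (adjusted p up to 0.0705). The glycine transporter SLC6A9 (1.05), the neutral amino acid carriers SLC1A4 (0.76) and SLC38A2 (0.58) and the arginine and lysine carrier SLC7A1 (0.63) rose. The glutamate carrier SLC1A3 (−0.39) and the lysosomal transporter SLC36A1 (−0.36) were called lower, but the number of transporters called lower was 3 without any 1 of the DMSO libraries or ML60218 replicate 2 and 0 in the limma test.

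The aminoacyl-tRNA synthetases, which charge transfer RNAs with amino acids, differed by compartment in their counts. Of 23 cytosolic enzymes and scaffold proteins, 10 were called higher and 5 lower (median 0.11), and of 16 mitochondrial ones 4 and 5 (median −0.070). The difference between these lists was not tested. Over all genes tested, 18.1% were called higher and 20.9% lower. The cytosolic share of lower calls was near the latter. CARS1, the cysteine enzyme, measured 41.9, 39.7 and 38.7 CPM with DMSO and 55.7, 56.1 and 57.3 CPM with ML60218 (log2 fold change 0.49, SE 0.044, adjusted p 0.000118). GARS1 (0.36), SARS1 (0.29), MARS1 (0.25), AARS1 (0.23) and YARS1 (0.21) followed. HARS1, the histidine enzyme, was called lower (−0.19), as was RARS1 (−0.12). Of the mitochondrial enzymes PARS2 rose by 0.46, YARS2 was at −0.33 and LARS2 at −0.20. Without DMSO replicate 1, 2 and 3 the cytosolic list held 2, 1 and 1 calls for lower. The number of mitochondrial enzymes called higher was 1 without DMSO replicate 1 or 3 or ML60218 replicate 2 or 3. The number of mitochondrial ones called lower was 2 without DMSO replicate 3, 3 without ML60218 replicate 2, 2 with total counts and 1 in the limma test. LARS2 lost its call in 1 of the 15 alternatives.

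The promoters of the genes in these stress and amino acid lists held 1 sequence more often than promoters of all genes tested. The lists were chosen by function with earlier results of these data known. The sequence therefore cannot be taken as independent of their choice. The letters TGATGNAA, searched on both strands, spell the composite site at which a C/EBP protein and an ATF factor such as ATF4 can bind as a pair. RefSeq promoters (GRCh38.p14, from 250 bases before to 50 bases after the start) were matched to 11575 of the genes tested, and 1.80% of them held these letters. For 3384 genes the table lists several starts, and the first listed was used. The grouping of these 5 lists was made after the values were seen. Of the 73 matched promoters in the 5 lists, 17 held them. Of these 17 genes, 14 were called higher, 1 lower and 2 were not called. Counted the other way, the letters stood in 14 of 39 promoters of list members called higher (35.9%) and in 3 of 34 promoters of the other members (8.82%). Of the 95 matched promoters of all genes called higher by at least 2-fold, 7 held them (7.37%), and of the 14 of genes called lower by that much, 0 did. When any listed start counted, an alternative added after seeing the data, the shares were 18 of 39, 4 of 34, 9 of 95, 1 of 14 and 2.95% of all. The 10 sites below are shown for their likeness, 5′ to 3′ on the strand of the gene, with the match in capitals; the last 6 belong to tRNA synthetases.
CHAC1, chr15:40953251-40953280, plus strand: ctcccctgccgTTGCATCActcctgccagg
ATF3, chr1:212565205-212565234, plus strand: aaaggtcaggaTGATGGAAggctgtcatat
ASNS, chr7:97872458-97872487, minus strand: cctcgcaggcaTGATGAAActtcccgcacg
SLC7A1, chr13:29595663-29595692, minus strand: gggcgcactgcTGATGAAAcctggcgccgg
CARS1, chr11:3057407-3057436, minus strand: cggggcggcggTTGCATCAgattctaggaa
MARS1, chr12:57488053-57488082, plus strand: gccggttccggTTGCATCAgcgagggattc
AARS1, chr16:70289675-70289704, minus strand: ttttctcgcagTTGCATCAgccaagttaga
IARS1, chr9:92293692-92293721, minus strand: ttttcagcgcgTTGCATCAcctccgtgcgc
TARS1, chr5:33440956-33440985, plus strand: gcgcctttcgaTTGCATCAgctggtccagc
NARS1, chr18:57621804-57621833, minus strand: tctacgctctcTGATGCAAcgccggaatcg
In the synthetase promoters the capitals read TTGCATCA or, in NARS1, its reverse complement TGATGCAA, and 9 of the 14 promoters of genes called higher held this version of the site. In 7 of the 14 the match began within 20 bases of the annotated start. The synthetase with the largest rise, CARS1, and TARS1, with a small rise (0.15), had the same 8 letters. A match is a description of the letters only. Most list members that rose at least 2-fold had no match in the stretch searched. Sequence farther from the start was not searched. DDIT3, DDIT4, PPP1R15A, CEBPB, CTH, ADM2, STC2, GDF15 and SLC6A9 had no match at any listed start. JDP2 held the site only at a start other than the first listed, and SLC7A11 and NUPR1 were not matched to a promoter.

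**Figure D2:**
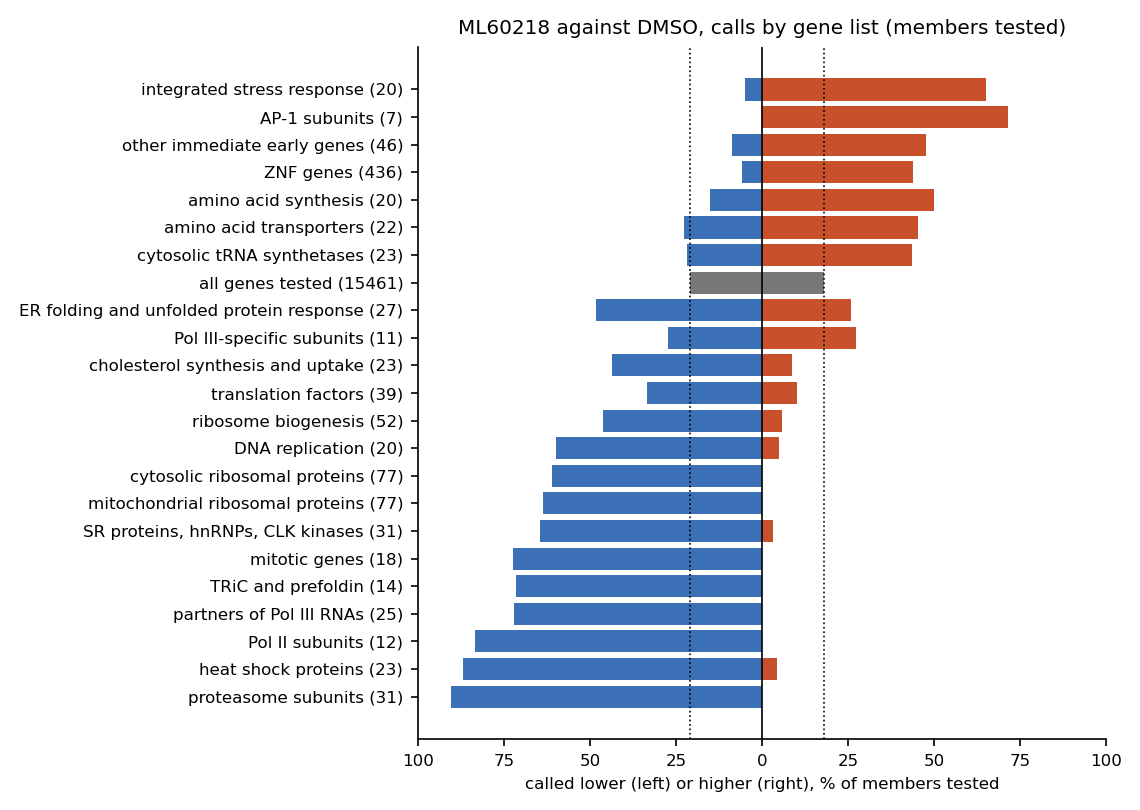
Share of the members tested in each gene list (number in brackets) that were called higher (right, red) or lower (left, blue) with ML60218, in percent; grey bars and dotted lines mark all genes tested. Stress response, AP-1 and ZNF genes lie mainly to the right, and proteasome, heat shock and Pol II genes to the left.

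Immediate early genes rose as well. Of the 7 genes for AP-1 subunits, 5 were called higher and 0 lower (median 0.87). JUN measured 194, 191 and 191 CPM with DMSO and 408, 545 and 788 CPM with ML60218 (log2 fold change 1.6, SE 0.28, adjusted p 0.0145). The DMSO libraries agreed within a few CPM, whereas the highest ML60218 library held nearly as much above the lowest as the lowest held in all. JUN lost its call when any DMSO library was left out and with a replicate block (adjusted p up to 0.0621). FOS, far less abundant, measured 1.71, 1.47 and 1.81 CPM with DMSO and 4.25, 3.95 and 4.05 CPM with ML60218 (log2 fold change 1.29, SE 0.13, adjusted p 0.000188). JUND (0.95), FOSB (0.87) and FOSL2 (0.75) rose, while FOSL1 (−0.030) and JUNB (−0.071) were not called.

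Of 46 other immediate early and growth factor genes, 22 were called higher and 4 lower (median 0.26), and 14 were called higher without DMSO replicate 2 or 3. DUSP1, a phosphatase that switches off stress-activated kinases, measured 18.6, 19 and 20.4 CPM with DMSO and 42.7, 59.2 and 94.1 CPM with ML60218 (log2 fold change 1.76, SE 0.35, adjusted p 0.0200) and lost its call without any 1 of the DMSO libraries (adjusted p up to 0.0802). CCN1 (1.14), NR4A3 (0.80), GADD45A (0.76) and HES1 (0.68) rose. MYC measured 99.0, 97.3 and 97.8 CPM with DMSO and 137, 157 and 199 CPM with ML60218 (log2 fold change 0.74, SE 0.15, adjusted p 0.0168), again with the ML60218 libraries spread apart. Its partner MAX was called lower (−0.29). NF-kB targets held 5 calls for higher and 1 for lower among 10 tested. CXCL2 and CXCL8 were under 1 CPM in every library. The count of higher calls in that list fell to between 1 and 3 when any single library was left out. MYC (3), MAX (1), CXCL2 (3) and CXCL8 (6) lost the call in that many of the alternatives.

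Some of the largest rises lay outside these groups. ARRDC3, an arrestin-domain protein that glucose-sensing factors such as MondoA control, measured 13.6, 14.3 and 13.3 CPM with DMSO and 43.3, 54.4 and 61.7 CPM with ML60218 (log2 fold change 1.95, SE 0.13, adjusted p 0.000266). TXNIP, the best known gene under that control, was called lower, at 36.5, 38.5 and 37.1 CPM with DMSO and 25.4, 25.4 and 23.6 CPM with ML60218 (log2 fold change −0.59, SE 0.050, adjusted p 0.000107). These family members therefore moved in opposite directions. TSC22D3, a glucocorticoid-inducible leucine zipper protein, measured 142, 137 and 145 CPM with DMSO and 348, 429 and 487 CPM with ML60218 (log2 fold change 1.57, SE 0.13, adjusted p 0.00123). SLC16A6, of the monocarboxylate transporter family, measured 4.79, 3.51 and 3.88 CPM with DMSO and 11.8, 14.4 and 15.4 CPM with ML60218 (log2 fold change 1.78, SE 0.14, adjusted p 0.000108). ZC3H6, a zinc finger protein of the CCCH type, measured 9.28, 8.35 and 8.67 CPM with DMSO and 21.8, 26.3 and 36.2 CPM with ML60218 (log2 fold change 1.68, SE 0.20, adjusted p 0.00225). H4C14 and H4C15 are near-identical copies of a histone H4 gene on chromosome 1 and share reads. Their sum was 17.2, 19.6 and 18.2 CPM with DMSO and 46.9, 67.5 and 113 CPM with ML60218. The groups did not overlap for the sum, which in CPM also held for 51.9% of all genes tested. H4C14 lost its call in 7 and H4C15 in 3 of the 15 alternatives. Over 32 replication-dependent histone genes, 6 were called higher and 1 lower, beside 18.1% higher and 20.9% lower over all genes tested. The histone share of higher calls was thus near that of all genes. Without DMSO replicate 1, 3 were higher.

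Cytosolic chaperones moved the other way. Of 23 heat shock proteins and co-chaperones, 20 were called lower and 1 higher (median −0.20). HSPA8 (ENSG00000109971, chromosome 11, 123057489 to 123063230, minus strand), the constitutive Hsc70 chaperone and the most abundant of those that changed most, measured 2226, 2279 and 2257 CPM with DMSO and 1284, 962 and 785 CPM with ML60218 (log2 fold change −1.16, SE 0.20, adjusted p 0.0127). The DMSO libraries differed by little, and every ML60218 library was far below them. HSPA2, another Hsp70, measured 16.2, 16.6 and 16.5 CPM with DMSO and 8.72, 6.85 and 5.04 CPM with ML60218 (log2 fold change −1.27, SE 0.18, adjusted p 0.00216). DNAJB1, an Hsp40 partner of Hsp70, measured 125, 132 and 129.7 CPM with DMSO and 74.7, 57.9 and 44.0 CPM with ML60218 (log2 fold change −1.13, SE 0.21, adjusted p 0.0147) and lost its call in 4 fits without 1 library (adjusted p up to 0.0541). HSPE1 (−0.65), DNAJA1 (−0.55) and BAG3 (−0.46) fell by less, and the Hsp90 genes HSP90AA1 (−0.15) and HSP90AB1 (−0.12) by little. HSPA4L was the member called higher (0.21). HSPA1A, which shares reads with its copy HSPA1B, measured 0.248, 0.611 and 0.447 CPM with DMSO and 0 in the 3 ML60218 libraries, too low for a fold change although it counts among the calls. The number of heat shock genes called lower was 13 without DMSO replicate 1 or 2 and 9 in the limma test of log2(TPM + 1). HSPE1 lost its call in 3 of the 15 alternatives.

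HSF1 binds repeats of a short unit, and a pair of facing units reads GAANNTTC or TTCNNGAA. Such a pair, on either strand and with overlapping matches counted once per promoter, stood in 10.1% of all 11575 promoters, in 6 of 21 heat shock promoters and in 5 of the 14 matched promoters of genes called lower by at least 2-fold. It stood in 6 of 95 promoters of genes called higher by that much. The excess among falling genes did not hold at smaller changes. Genes called at least 1.5-fold lower had the pair in 13 of 117 promoters (11.1%), and all genes called lower in 244 of 2641 (9.24%). With any listed start the pair stood in 13 of the 21 heat shock promoters, 6 of the 14, 6 of the 95 and 13.9% of all. HSPA8 held it at a distal and a proximal place, each with overlapping matches. These are shown with DNAJA1 because they are members that fell, with single matches and 1 match of each overlapping group in capitals.
HSPA8, chr11:123062348-123062377, minus strand: ggggcgagcttGAAAGTTCcagaacgctgc
HSPA8, chr11:123062173-123062202, minus strand: gggcgggccccTTCTGGAAggttctaagat
DNAJA1, chr9:33025064-33025093, plus strand: aaagggctccaGAAGATTCcacgagcgccg
DNAJA1, chr9:33025265-33025294, plus strand: cgcgccgggcgGAACTTTCcagaacgctcg
HSPA2 and BAG3 fell with no such pair at a listed start, and DNAJB1 held it only at starts other than the first listed.

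Other parts of the protein quality machinery fell by small amounts. Of 31 proteasome subunits, 28 were called lower and 0 higher, with a median of −0.17. PSMA2 measured 159.8, 163 and 156 CPM with DMSO and 140.4, 137 and 117 CPM with ML60218 (log2 fold change −0.28, SE 0.065, adjusted p 0.0103), the largest fall of the list. PSMA3, PSMB5 and PSMA4, all of the 20S core, stood at −0.27, −0.26 and −0.26, and PSMD3 of the regulatory cap at −0.23. The count depended on the scaling and on single libraries: 12 were called lower with total counts, 18 with GC and length trends removed, 17 without DMSO replicate 2 and 0 in the limma test. Relative to the median of all genes in each test, the median of the list lay between −0.20 and −0.12 over the alternatives that kept all libraries. The chaperonin TRiC and its helper prefoldin gave 10 lower and 0 higher of 14 (median −0.14), with PFDN6 at −0.28 and TCP1 at −0.14, which turned to 0.0080 in the limma test. That count was 1 with total counts, 4 with upper quartile scaling and without DMSO replicate 1 or 2, 5 without DMSO replicate 3, 6 with a replicate block and 0 in the limma test. PSMA2 (1), PSMA3 (3), PSMB5 (1), PSMA4 (1), PSMD3 (1), PFDN6 (9) and TCP1 (2) lost the call in that many of the alternatives.

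Genes of the endoplasmic reticulum were called in both directions. Of 27 folding and unfolded protein response genes, 7 were called higher and 13 lower (median −0.093), beside 18.1% and 20.9% of all genes tested. In the limma test 5 were lower. The higher calls numbered 4 without DMSO replicate 2 or 3 and with GC and length trends removed. Of the 3 sensors of that response, 2 were called higher and EIF2AK3, given above, was not. ERN1, which encodes IRE1, measured 20.5, 20.1 and 19.1 CPM with DMSO and 27.8, 30.1 and 32.6 CPM with ML60218 (log2 fold change 0.60, SE 0.065, adjusted p 0.000235), and ATF6 rose by 0.22. XBP1, the transcription factor that IRE1 activates by splicing, measured 110.1, 108 and 115 CPM with DMSO and 145, 173 and 183 CPM with ML60218 (log2 fold change 0.59, SE 0.084, adjusted p 0.00243), and HERPUD1, of the degradation pathway, rose by 0.58. Chaperones of that compartment were called lower: HSPA5, known as BiP, measured 390.2, 382 and 376 CPM with DMSO and 314, 317 and 277 CPM with ML60218 (log2 fold change −0.34, SE 0.050, adjusted p 0.00107), and SDF2L1 (−0.66), CALR (−0.25) and PDIA6 (−0.22) fell with it. ATF6 lost its call in 1 of the 15 alternatives.

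Genes of the polymerases themselves changed modestly. POLR3A, the catalytic subunit of Pol III, measured 112, 118 and 108 CPM with DMSO and 85.1, 89.0 and 85.3 CPM with ML60218 (log2 fold change −0.38, SE 0.041, adjusted p 0.000229), and in the limma test its adjusted p was 0.0512. Of 11 subunits specific to Pol III, 3 were called higher and 3 lower: POLR3K was at −0.23, while POLR3D (0.29), POLR3C (0.22) and POLR3E (0.20) rose. Of 16 Pol III initiation factors with the repressor MAF1, 3 were higher and 5 lower (0 lower in the limma test and 1 higher without DMSO replicate 1), with SNAPC1 at 0.31 and MAF1 at −0.27. The proteins that bind Pol III RNAs moved mainly down, with 18 of 25 lower and 0 higher (median −0.19; 7 lower in the limma test). HEXIM1, which holds the elongation factor P-TEFb inactive on 7SK RNA, measured 89.5, 93.8 and 94.0 CPM with DMSO and 69.7, 55.3 and 57.0 CPM with ML60218 (log2 fold change −0.61, SE 0.085, adjusted p 0.00176). POP4 of RNase P (−0.56) and the U6-binding proteins LSM3 (−0.52) and LSM6 (−0.45) fell. Of 12 Pol II subunits, 10 were called lower and 0 higher (median −0.23; 3 in the limma test). POLR2L, a subunit shared by the 3 polymerases, measured 59.8, 57.5 and 56.8 CPM with DMSO and 42.6, 36.2 and 30.9 CPM with ML60218 (log2 fold change −0.67, SE 0.11, adjusted p 0.00370), and POLR2F (−0.51) and POLR2K (−0.49), also shared, followed. POLR3K (1), POLR3C (4), MAF1 (1) and LSM3 (3) lost the call in that many of the alternatives.

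RRN3 (ENSG00000085721, chromosome 16, 15060022 to 15094317, minus strand), the factor that recruits RNA polymerase I to ribosomal DNA, had the largest fall among the protein-coding genes plotted above. It measured 50.4, 46.1 and 54.9 CPM with DMSO and 2.25, 0 and 7.12 CPM with ML60218 (log2 fold change −3.93, SE 0.87, adjusted p 0.0296). The ML60218 libraries were all far below the DMSO libraries and ranged from 0 upwards. RRN3 has transcribed pseudogenes with which it can share reads, and the sum of the family went from 54.2 ± 4.61 to 8.36 ± 3.84 CPM. RRN3 lost its call in 6 of the 15 alternatives (adjusted p up to 0.116). Among other Pol I genes POLR1G stood at −0.56, TAF1A at 0.46 and UBTF at −0.11, which turned to 0.15 in the limma test. UBTF lost its call in 8 of the 15 alternatives.

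Most ribosomal protein genes were called a little lower. Of 77 cytosolic ribosomal protein genes, 47 were called lower and 0 higher (median −0.14). RPS26 measured 282, 271 and 271 CPM with DMSO and 211, 207 and 179.9 CPM with ML60218 (log2 fold change −0.46, SE 0.057, adjusted p 0.000640), and RPL24, RPL38 and RPL35A stood at −0.30, −0.29 and −0.27. This count depended on the processing: 19 were lower with upper quartile scaling, 16 with total counts, 13 with GC and length trends removed, 2 in the limma test, and 16, 20 and 17 without DMSO replicate 1, 2 and 3. Mitochondrial ribosomal proteins gave 49 lower and 0 higher of 77 (median −0.19; 14 in the limma test), with MRPL51 at 141, 141 and 143 CPM with DMSO and 106, 97.9 and 79.8 CPM with ML60218 (log2 fold change −0.58, SE 0.10, adjusted p 0.00693). Of 52 nucleolar ribosome biogenesis factors, 24 were lower and 3 higher (7 lower in the limma test), among them IMP3 (−0.53), NIP7 (−0.51) and RRS1 (−0.45). Of 39 translation initiation and elongation factors, 13 were lower and 4 higher, with 2 lower and 10 higher in the limma test and 1 higher without DMSO replicate 2 or 3 or ML60218 replicate 2. EIF4E, the cap-binding protein, measured 213, 211 and 210.0 CPM with DMSO and 166, 157 and 129 CPM with ML60218 (log2 fold change −0.49, SE 0.092, adjusted p 0.00823). Genes of the mitochondrial genome held 1 call among 13, MT-ND2 at −0.76 (adjusted p 0.0467), and 7 were lower without ML60218 replicate 1 and 0 without either of the other ML60218 libraries or any 1 of the DMSO libraries. RPL24 (5), RPL35A (1) and MT-ND2 (10) lost the call in that many of the alternatives.

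Most splicing and cell cycle genes were also called lower. Of 31 SR proteins, hnRNPs and CLK kinases, 20 were called lower and 1 higher (median −0.15), with 13 under total counts and 5 in the limma test. SRSF2 measured 398, 403 and 403 CPM with DMSO and 302, 280.1 and 265 CPM with ML60218 (log2 fold change −0.51, SE 0.044, adjusted p 0.000118), and SRSF3 stood at −0.36 and HNRNPA0 at −0.43. Of 18 mitotic genes, 13 were lower and 0 higher (median −0.17; 7 in the limma test). AURKA, a spindle kinase, measured 135, 136 and 138 CPM with DMSO and 99.1, 93.6 and 83.2 CPM with ML60218 (log2 fold change −0.57, SE 0.057, adjusted p 0.000239), and CCNB1 (−0.45) and KIF20A (−0.37) fell too. Of 20 replication genes, 12 were lower and 1 higher, with PCNA at −0.39 and CCNE1 at −0.48. That count was 7 without DMSO replicate 1, 6 without DMSO replicate 2, 5 with total counts and 3 in the limma test. In bulk libraries fewer cells in a cycle phase and less RNA per cell cannot be told apart.

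Lipid, redox and cell death genes were mixed or slightly lower. Cholesterol synthesis and uptake gave 10 lower and 2 higher of 23 (1 lower in the limma test, and 1 higher without any 1 of the DMSO libraries), and the regulator SREBF2 was not called (−0.015, and 0.19 in the limma test). FASN, fatty acid synthase, stood at −0.33 and ELOVL6 at −0.40. Of 20 NRF2 targets, 7 were lower and 0 higher, with SRXN1 at −0.50 and TXN at −0.32, while HMOX1 (−0.020) and NQO1 (0.043) were not called. SLC7A11, often counted among NRF2 targets, rose as given above. Of 21 p53 targets, 4 were higher and 6 lower, beside 18.1% higher and 20.9% lower over all genes tested. Among these targets GADD45A was up, BAX stood at −0.27 and MDM2 at 0.16. TNFRSF10D, a decoy receptor for the death ligand TRAIL, measured 18.6, 19.2 and 18.7 CPM with DMSO and 10.2, 8.48 and 6.10 CPM with ML60218 (log2 fold change −1.19, SE 0.17, adjusted p 0.00227). PMAIP1, which encodes the death promoter NOXA, measured 129.9, 123 and 128 CPM with DMSO and 168, 195 and 201 CPM with ML60218 (log2 fold change 0.57, SE 0.065, adjusted p 0.000616), HRK rose by 0.66, and BAK1 stood at −0.44. The counts of lower calls for NRF2 and p53 targets fell to between 2 and 4 with DMSO replicate 1 or 2 left out, and 2 p53 targets were called higher without any 1 of the DMSO libraries or ML60218 replicate 2. BAX (1) and MDM2 (5) lost the call in that many of the alternatives.

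The remaining large falls belonged to genes of diverse function. IFNAR1, a chain of the type I interferon receptor, measured 45.7, 45.7 and 36.9 CPM with DMSO and 24.4, 17.8 and 16.7 CPM with ML60218 (log2 fold change −1.13, SE 0.17, adjusted p 0.00577). AMD1, which makes the donor of aminopropyl groups for polyamines, measured 497, 491 and 484 CPM with DMSO and 265, 250.2 and 224 CPM with ML60218 (log2 fold change −1.0, SE 0.055, adjusted p 3.06e-05). All ML60218 libraries of AMD1 lay far below the DMSO libraries. TPRG1L (−0.98), FASTKD5 (−0.92), a mitochondrial RNA-processing protein, the Polycomb protein CBX6 (−0.92), the lysophospholipid acyltransferase LPCAT1 (−0.94), SNN (−0.90), FAM83D (−0.88), DOK3 (−0.86) and ZC3HAV1 (−0.82), the antiviral protein ZAP, completed the 15 largest. ZC3HAV1 lost its call in 6 alternatives and LPCAT1 without ML60218 replicate 3.

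Zinc finger genes of the ZNF family were called higher in many cases. Protein-coding genes named ZNF and a number mostly encode DNA-binding repressors of the C2H2 class, many of them clustered on chromosome 19. Of 436 tested, 192 (44.0%) were called higher and 25 lower, with a median of 0.20. ZNF441 measured 7.74, 6.63 and 8.13 CPM with DMSO and 15.3, 19.3 and 21.8 CPM with ML60218 (log2 fold change 1.33, SE 0.14, adjusted p 0.000380). ZNF44 measured 7.74, 7.24 and 7.64 CPM with DMSO and 13.6, 18.6 and 22.8 CPM with ML60218 (log2 fold change 1.29, SE 0.18, adjusted p 0.00271). ZNF433 (1.49) and ZNF442 (1.33) were lower in level, at up to 5.71 CPM, and rose as well. On chromosome 19, 91 of 220 ZNF genes were higher and 8 lower, against 66 and 249 of 856 other coding genes there. On other chromosomes 46.8% of 216 were higher and 17 lower. Among coding genes whose transcript lengths fell in the interquartile range of the ZNF genes, 16.7% of 5290 were higher, against 98 of 218 ZNF genes. The count of ZNF genes called higher lay between 138 and 226 over the 15 alternatives, which include removal of GC and length trends (178). Family members resemble each other in sequence, so reads may be split between them.

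Calls also followed the size of a gene. When coding genes were divided into 5 equal classes by transcript length, 11.6% of the shortest were called higher and 28.1% lower, against 28.4% and 13.6% of the longest. Divided by genomic span, introns included, the shortest class gave 11.1% higher and 31.4% lower and the longest 25.1% and 8.86%. By GC content of the transcript, the lowest class gave 26.1% higher and the highest 8.55%. The divisions by span and GC were added after the values had been seen. Rises of at least 2-fold ran against this order for span, with 44 in the shortest class and 13 in the longest. Pseudogenes were called higher in 192 of 903 cases and lower in 26, and they can share reads with their parent genes.

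**Figure D3:**
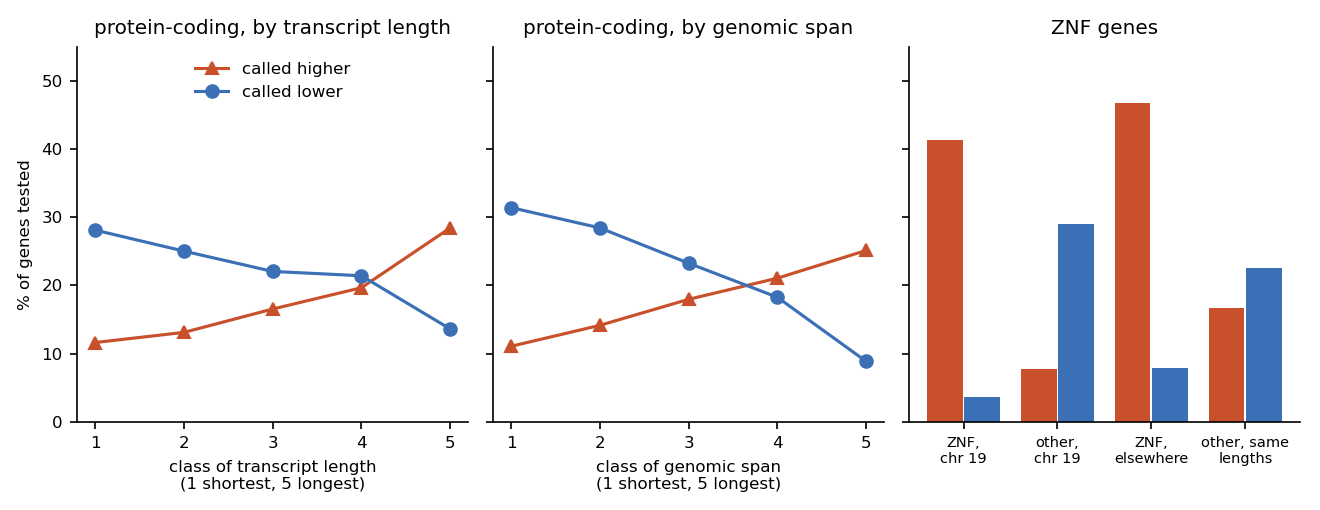
Percent of protein-coding genes called higher (red triangles) or lower (blue circles) in 5 classes of transcript length and of genomic span, and (bars, same colours) of ZNF genes on and off chromosome 19 beside other coding genes. Higher calls grow and lower calls shrink from the shortest to the longest class, and ZNF genes are higher in both places.

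The ML60218 libraries did not respond to the same extent. Among 39 genes called with at least a 2-fold change and a mean log2 CPM of at least 3, ML60218 replicate 1 lay nearest the DMSO mean in 38, and replicate 3 lay farthest in 33. The median distances were 1.03, 1.36 and 1.6 on the log2 scale for replicates 1, 2 and 3. All 3 libraries lay on the same side of DMSO for all 39 genes. Choosing genes by a called 2-fold change in these same libraries made that agreement likely from the start. The widest spreads were those of RRN3, H4C14, MTND1P23, DUSP1, H4C15 and JUN. MTND1P23, a pseudogene copy of a mitochondrial gene, measured 15, 18.5 and 18.4 CPM with DMSO and 8.94, 5.36 and 3.49 CPM with ML60218 (log2 fold change −1.56, SE 0.37, adjusted p 0.0291), and mitochondrial genes took 7.22%, 5.56% and 5.38% of the assigned reads in the ML60218 libraries against 6.02%, 6.63% and 7.73% with DMSO. CHAC1, DDIT3, DDIT4, STC2 and ASNS varied little among the same libraries. Whether the libraries differed in exposure, harvest or handling is not given in the labels and was not tested.

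**Figure D4:**
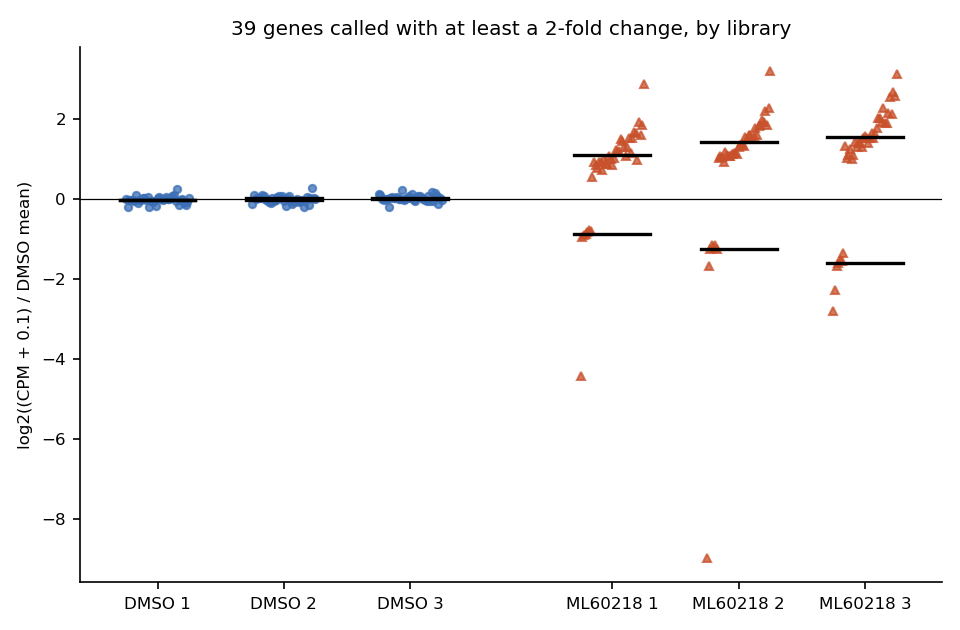
Distance of each library from the DMSO mean (log2 of CPM + 0.1) for 39 genes called with at least a 2-fold change, 1 point per gene, with black bars for the medians of genes that rose and genes that fell. ML60218 replicate 1 lies nearest 0 and replicate 3 farthest; the lowest point is RRN3, at 0 CPM in replicate 2.

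Many of these changes differed from those 2 days after the POLR3A siRNA. A single fit of all 12 libraries tested the ML60218 effect minus the siRNA effect: of 15780 genes, 4163 had a positive difference (26.4%) and 3868 a negative one (24.5%). The experiments differ in agent, time and control treatment, which cannot be told apart here. In the stress response list, 13 of 20 genes had a positive and 2 a negative difference, and the median siRNA effect was 0.070. CHAC1 was at 0.48 after the siRNA (difference 2.68, adjusted p 3.31e-06), ATF3 at −0.22 (2.50, adjusted p 0.000130) and DDIT3 at 0.20 (1.91, adjusted p 9.66e-08). DDIT4 was called lower after the siRNA, at −0.57, and its difference was 2.07, adjusted p 3.63e-09. ADM2 also rose after the siRNA, by 0.70 (adjusted p 2.37e-05), and by more with ML60218 (difference 1.12, adjusted p 6.85e-06).

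Amino acid genes and chaperones differed as well. SLC7A11 was at 0.029 after the siRNA (difference 1.73, adjusted p 4.34e-07), ASNS at 0.067 (0.94, adjusted p 1.66e-09) and SLC7A1 at −0.46 (1.08, adjusted p 6.82e-10). Among cytosolic synthetases SARS1 was called lower after the siRNA, at −0.39 (difference 0.68, adjusted p 5.31e-09), while MARS1 rose in both experiments, by 0.32 after the siRNA, with no called difference (−0.067, adjusted p 0.122). Of 23 heat shock genes, 17 had a negative and 2 a positive difference. HSPA2 and DNAJA1 were called higher after the siRNA, at 0.66 and 0.67, and lower with ML60218 (differences −1.92, adjusted p 7.29e-06 and −1.22, adjusted p 1.29e-09). HSPA8 was lower in both, at −0.68 after the siRNA, and its difference was not called (−0.48, adjusted p 0.0861). POLR3A, the target of the siRNA, was at −2.36 there and at −0.38 with ML60218 (difference 1.98, adjusted p 2.59e-08). TXNIP rose after the siRNA (0.53; difference −1.12, adjusted p 7.87e-10), and SNN was lower in both, at −0.86 after the siRNA (difference −0.042, adjusted p 0.837). Of the ZNF genes, 128 of 436 had a positive and 80 a negative difference, and their median siRNA effect was 0.14.

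**Figure D5:**
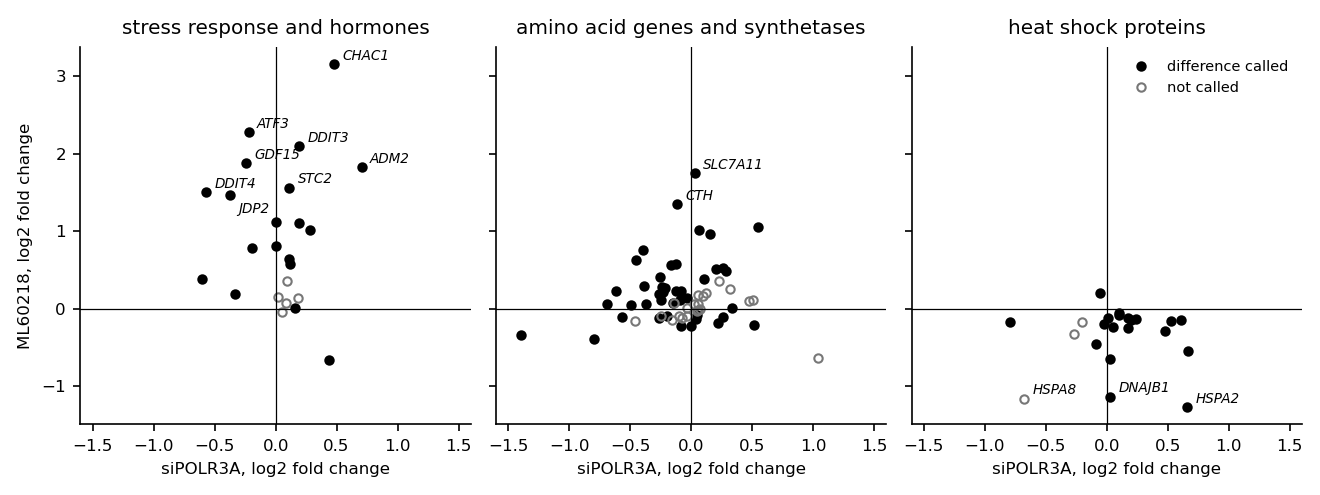
Log2 fold change with ML60218 (4 hours, vertical axis) against that after the POLR3A siRNA (2 days, horizontal axis) for the members tested of 3 groups of lists, 1 point per gene; filled points have a called difference between the effects. CHAC1 lies highest and to the right of 0 on the horizontal axis. ATF3, DDIT3 and SLC7A11 lie high on the vertical axis and nearer 0 on the horizontal one. HSPA1A, at 0 in the ML60218 libraries, is left out.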

How the data were processed

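Each of the 6 libraries was strand-specific messenger RNA sequencing of HEK293T cells, made with a Kapa kit per the labels. The authors deposited estimated counts and TPM per transcript, with column names as salmon writes them per the file headers; its version, settings and transcript release are not given in the sources used here. The submitters' processing notes name bcl2fastq 2.20, Trim Galore, DESeq2 and hg38. Transcripts were matched to GENCODE 29 genes (158359 of 194142; 8.37% to 8.72% of reads unmatched and left out), and deposited counts were summed per gene and rounded. The design had assumed counts per gene. edgeR 4.0.16 in R 4.3.3 fitted DMSO against ML60218 (TMM, filterByExpr with a minimum count of 10, robust quasi-likelihood test, two-sided, Benjamini-Hochberg adjustment, calls under 0.05), and all 12 libraries for the difference from the siRNA effect. Scripts were tested on simulated data. Alternatives were RLE, upper quartile and total-count scaling, no filter, DESeq2 1.42.0, limma 3.58.1 on log2(TPM + 1), a replicate block, neighbouring transcripts, removal of GC and length trends, and each library left out. The members and gene lists were chosen with earlier results of these data known. Named genes were the 15 largest rises and falls (coding, called, mean log2 CPM of at least 3, no overlap), up to 6 called members per list with its regulators, 4 genes of other types, the 6 most variable with ML60218, and POLR3A; other members of a list, and ones named as not called, were picked after their values were seen. With 3 libraries per group an exact permutation test of 1 gene cannot go below 0.1. Some items are not reported here. Promoters are RefSeq, GRCh38.p14, 1 start per gene; counting any listed start was added after seeing the data.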

Additional observations from a re-analysis of the deposited data

How the results depend on the processing

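Of 239 called genes named by rule, 141 kept their call in all 15 alternatives and 98 lost it in at least 1. With limma on log2(TPM + 1), values turned positive for PFDN4 (0.0027), TCP1 (0.0080), TALDO1 (0.0051), GSR (0.017), TKT (0.043), MLXIP (0.11), UBTF (0.15), TP53I3 (0.047), SREBF2 (0.19). With limma, 716 genes were called lower, 59 higher and 8 lower by at least 2-fold, and 9 heat shock, 0 proteasome, 2 ribosomal and 14 mitochondrial ribosomal genes lower. With DESeq2, 112 genes were higher and 16 lower by at least 2-fold. With total counts, 1919 genes, 12 proteasome and 16 ribosomal genes were lower; upper quartile scaling gave 19 ribosomal, and removed GC and length trends 18 proteasome and 13 ribosomal genes. Leaving out 1 library gave 4159 to 6501 called genes, 1885 to 3001 higher, 2274 to 3500 lower, 136 to 218 and 23 to 58 by at least 2-fold, and 13 to 14 stress response, 4 to 5 AP-1 and 138 to 223 ZNF genes higher and 13 to 20 heat shock, 17 to 27 proteasome, 39 to 48 mitochondrial ribosomal and 16 to 51 ribosomal genes lower. The difference between the experiments was called for 7539 to 8089 genes with all libraries and 7504 to 8266 with 1 left out. The labels do not say whether equal replicate numbers share a culture. Correlations of same-numbered deviations were small (−0.098, 0.022 and −0.044) and, with 3 libraries per group, cannot decide this. The replicate block gave 5393 calls, 2471 higher and 2922 lower. Where no value shows it, the cause was not tested.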

Other observations

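The deposited table also separates transcripts by annotated type, which no gene-level comparison uses. Of 6 types compared, 2 are given here, chosen after their values were seen. Transcripts annotated as retaining an intron took from 4.45%, 4.53% and 4.65% to 5.10%, 4.66% and 4.84% of the assigned reads with ML60218. Transcripts annotated for nonsense-mediated decay went from 2.46%, 2.47% and 2.49% to 2.64%, 2.66% and 2.74%. The groups did not overlap for either share. The exact two-sided permutation p was 0.1 for both, the smallest that 3 libraries against 3 allow, and 0.12 after Benjamini-Hochberg adjustment over the 6 types. Protein-coding transcripts (lower) and the types processed transcript and lincRNA (both higher) did not overlap either and gave the same p-values. The lack of overlap was thus not particular to the 2 types given. Shares of transcripts of 1 gene rest on how reads were divided among overlapping models.

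RPSAP58, a pseudogene of the ribosomal protein gene RPSA, stood at 7.79, 5.27 and 5.19 CPM with DMSO and 2.99, 3.26 and 2.32 CPM with ML60218 (log2 fold change −1.09, SE 0.19, adjusted p 0.00265), and shares sequence with that gene. SLFN5, an interferon-stimulated gene, measured 11.7, 11.9 and 10.9 CPM with DMSO and 19.6, 18.9 and 24.2 CPM with ML60218 (log2 fold change 0.86, SE 0.095, adjusted p 0.000284), while it was at −1.45 after the POLR3A siRNA (difference 2.31, adjusted p 7.67e-10). The interferon-stimulated list as a whole held 2 calls for higher and 1 for lower among 14 tested, beside 18.1% and 20.9% of all genes. These p-values come from edgeR's quasi-likelihood test with Benjamini-Hochberg adjustment.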
